A study of Mus musculus with 8 samples.

Results

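Genes of the centrosome, the centriole and the augmin complex were followed in cultured mouse satellite cells given the compound sal003 or its vehicle DMSO. Members were taken by symbol from the count table: every gene named Cep with a number, the augmin genes Haus1 to Haus8, and 12 further named genes (Sass6, Stil, Plk4, Pcnt, Cdk5rap2, Aspm, Tubg1, Tubgcp2, Tubgcp3, Cntrob, Ninl and Nin). The rule found 51 genes among 39017 in the table, and all 51 passed the filter on low counts that left 15816 genes for testing. Satellite cells are the stem cells of skeletal muscle. They were isolated from the diaphragm and abdominal muscle of adult mice heterozygous for a GFP reporter in Pax3 (Pax3GFP/+), a genotype shared by both groups. The cells then spent 4 days in 10 µM sal003 (4 libraries) or in DMSO (4 libraries). Sal003 blocks dephosphorylation of the translation factor eIF2α. The labels do not give the sex or exact age of the mice, nor whether replicates were separate animals or cultures, so p-values measure the spread between these libraries, which may be technical.

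The centrosome is a pair of centrioles in a pericentriolar matrix that nucleates microtubules from rings of γ-tubulin. A cycling cell builds 1 new centriole beside each old one: the kinase Plk4 marks the site, Stil and Sass6 assemble the cartwheel on which the new wall forms, and Cep152, Cep192 and Cep63 hold Plk4 at the old centriole. Augmin, a complex of 8 Haus proteins, brings γ-tubulin rings to the sides of existing spindle microtubules. Myoblasts that leave the cell cycle and fuse move pericentriolar proteins, among them pericentrin, ninein, Cdk5rap2 and γ-tubulin, to the surface of the nucleus, where they organise the microtubules of the myotube. The members were therefore grouped by role, with 9 of centriole duplication set against 6 pericentriolar members that myotubes retain.

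To show regulatory sequence of duplication and division genes that rose, promoter windows are given for the 4 duplication members called at least 2-fold higher, for the spindle pole and midbody genes Aspm and Cep55, and for Pcnt as a pericentriolar counterpart. They come from RefSeq (GRCm38.p6), in which 41 of the 51 members matched with 50 windows, and run 5′ to 3′ on the gene's strand from 250 bases before to 20 bases after the start site. Capitals mark matches on either strand to the cell cycle homology region (CHR; TTTGAA or TTCGAA), the CCAAT box (CCAAT) or an E2F motif (TTTCCCGC, TTTGGCGC or TTTCGCGC). No motif contains another.
Plk4 (chr3:40799701-40799970, plus strand): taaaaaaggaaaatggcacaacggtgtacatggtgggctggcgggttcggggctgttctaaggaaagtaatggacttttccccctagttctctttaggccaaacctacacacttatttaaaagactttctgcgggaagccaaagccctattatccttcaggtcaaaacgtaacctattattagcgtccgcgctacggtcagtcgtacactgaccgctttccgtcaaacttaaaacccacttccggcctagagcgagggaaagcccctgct
Sass6 (chr3:116594708-116594977, plus strand): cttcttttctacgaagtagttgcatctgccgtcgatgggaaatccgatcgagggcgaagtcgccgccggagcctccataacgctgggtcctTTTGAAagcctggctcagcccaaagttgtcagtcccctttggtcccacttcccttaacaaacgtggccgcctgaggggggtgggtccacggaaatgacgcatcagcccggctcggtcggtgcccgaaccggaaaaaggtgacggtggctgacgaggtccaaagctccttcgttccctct
Cep152 (chr2:125625094-125625363, minus strand): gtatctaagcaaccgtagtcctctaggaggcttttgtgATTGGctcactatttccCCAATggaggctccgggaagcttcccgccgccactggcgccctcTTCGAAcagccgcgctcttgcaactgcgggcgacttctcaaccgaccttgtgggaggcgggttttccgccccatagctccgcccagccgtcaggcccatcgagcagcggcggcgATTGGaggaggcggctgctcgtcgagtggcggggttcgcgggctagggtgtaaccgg
Stil (chr4:114999868-115000137, plus strand): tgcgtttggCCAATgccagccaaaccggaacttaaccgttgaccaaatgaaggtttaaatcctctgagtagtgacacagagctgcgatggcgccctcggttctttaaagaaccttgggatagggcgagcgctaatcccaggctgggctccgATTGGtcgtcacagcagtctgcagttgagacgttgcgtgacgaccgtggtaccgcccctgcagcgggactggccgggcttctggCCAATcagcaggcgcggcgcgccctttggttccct
Aspm (chr1:139454523-139454792, plus strand): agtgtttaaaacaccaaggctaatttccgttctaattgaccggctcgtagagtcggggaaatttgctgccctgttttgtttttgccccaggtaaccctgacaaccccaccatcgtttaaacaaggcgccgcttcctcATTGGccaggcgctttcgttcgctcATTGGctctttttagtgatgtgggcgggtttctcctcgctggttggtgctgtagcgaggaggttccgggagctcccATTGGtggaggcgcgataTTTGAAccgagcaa
Cep55 (chr19:38054791-38055060, plus strand): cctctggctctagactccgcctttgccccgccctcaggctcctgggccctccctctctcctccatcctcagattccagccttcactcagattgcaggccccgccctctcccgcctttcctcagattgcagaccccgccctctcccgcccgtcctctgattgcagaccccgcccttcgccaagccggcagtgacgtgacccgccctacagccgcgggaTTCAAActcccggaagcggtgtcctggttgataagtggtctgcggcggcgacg
Pcnt (chr10:76442893-76443162, minus strand): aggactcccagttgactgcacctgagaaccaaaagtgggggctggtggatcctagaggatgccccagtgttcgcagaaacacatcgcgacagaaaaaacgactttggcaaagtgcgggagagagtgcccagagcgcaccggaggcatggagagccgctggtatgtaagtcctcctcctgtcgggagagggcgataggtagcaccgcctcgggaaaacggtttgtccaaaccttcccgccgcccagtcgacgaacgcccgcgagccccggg

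Sass6 held a CHR 159 bases before the start site, Cep152 a CHR and 3 CCAAT boxes, and Aspm 3 CCAAT boxes and a CHR just past its start. Cep55 held a CHR at position -33, and Stil 3 CCAAT boxes. The printed Cep55 window was chosen over another in RefSeq that begins at base 38054734. Measured from the start site of that other window, the same CHR lies downstream, past the length printed here. The printed windows of Plk4 and Pcnt held none of these letters, but the full window of Pcnt held a CCAAT box past the printed end. Over whole windows of 300 bases, a CHR was present in 7 of 21 windows of members higher in sal003 and in 7 of 29 windows of the other members, against 13.4% of the windows of tested genes. The CCAAT box was in 13 of 21 and 9 of 29, against 37.5% of the windows of tested genes. E2F motifs were in 1 of 21 and 1 of 29, against 3.35%. These are matches of letters in few windows, some of which belong to the same gene, and they were not tested.

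Depth was 32753929 to 40234107 counts per library. DMSO replicate 2 stood apart from the other libraries: its closest Spearman correlation within its group was 0.949, whereas that of every other library was at least 0.978. It also had counts in the fewest genes, 14437, against 16561 to 18076 in the other libraries. Leaving it out moved the log2 fold change of 14 members by over 1.5 times, of which 0 were called over all libraries, and its effect is given beside the calls and named values it changed most. The myogenic markers Pax7, Pax3, Myf5, Myod1, Myog, Des and Itga7 were all detected. Their summed level ran from 6383 to 7485 CPM (counts scaled to library size with TMM factors) in DMSO and from 3204 to 3515 CPM in sal003. Myog, Des and Itga7 fell and Pax7, the satellite cell factor, rose, while the other 3 did not pass. Multiciliated cells, which make centrioles in bulk, left almost no trace: their 5 markers summed to at most 0.579 CPM in any library, with Mcidas and Gmnc at 0 counts throughout. Fibro-adipogenic, endothelial, immune and Schwann cell markers, 5, 5, 5 and 4 genes, summed to at most 5.58 CPM in any library, with 2, 2, 3 and 2 of them at 0 counts, among them Dpt, Emcn, Ptprc and S100b. The 5 smooth muscle and pericyte markers summed to between 259 and 344 CPM in DMSO and between 184 and 211 CPM in sal003. Almost all of it came from Cspg4 and Notch3, which myogenic cells also express. Pdgfrb averaged 6.74 CPM in DMSO, with up to 10.9 CPM in a library, and 3.57 CPM in sal003. Myh11 and Rgs5 were below 1 CPM on average in each group. The part of the shift in myogenic markers in the differences below was not tested. In such bulk libraries, fewer cells of a type and less RNA per cell cannot be told apart.

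Centrosome genes were more often higher than lower in sal003. Of the 51 members, 19 were higher, 1 was lower and 31 did not pass (edgeR quasi-likelihood test, Benjamini-Hochberg (BH) adjusted p below 0.05 over all tested genes), where 10.6% of all tested genes were higher and 12.2% lower. The estimate was above 0 for 41 of 51 members, against 49.8% of all tested genes, and the median log2 fold change was 0.38, against -0.00338 over all tested genes. A change of at least 2-fold upward was called for 8 members (Plk4, Cep152, Cep128, Aspm, Sass6, Haus6, Cep55 and Stil), with 1.98% of all tested genes past that line. The 4 sal003 libraries lay above the 4 DMSO libraries for 23 members and below them for 1, against 13.1% and 13.7% of tested genes. Without DMSO replicate 2, 21 members were higher and 3 lower, with 13.4% and 13.6% of the genes then tested.

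**Figure D1:**
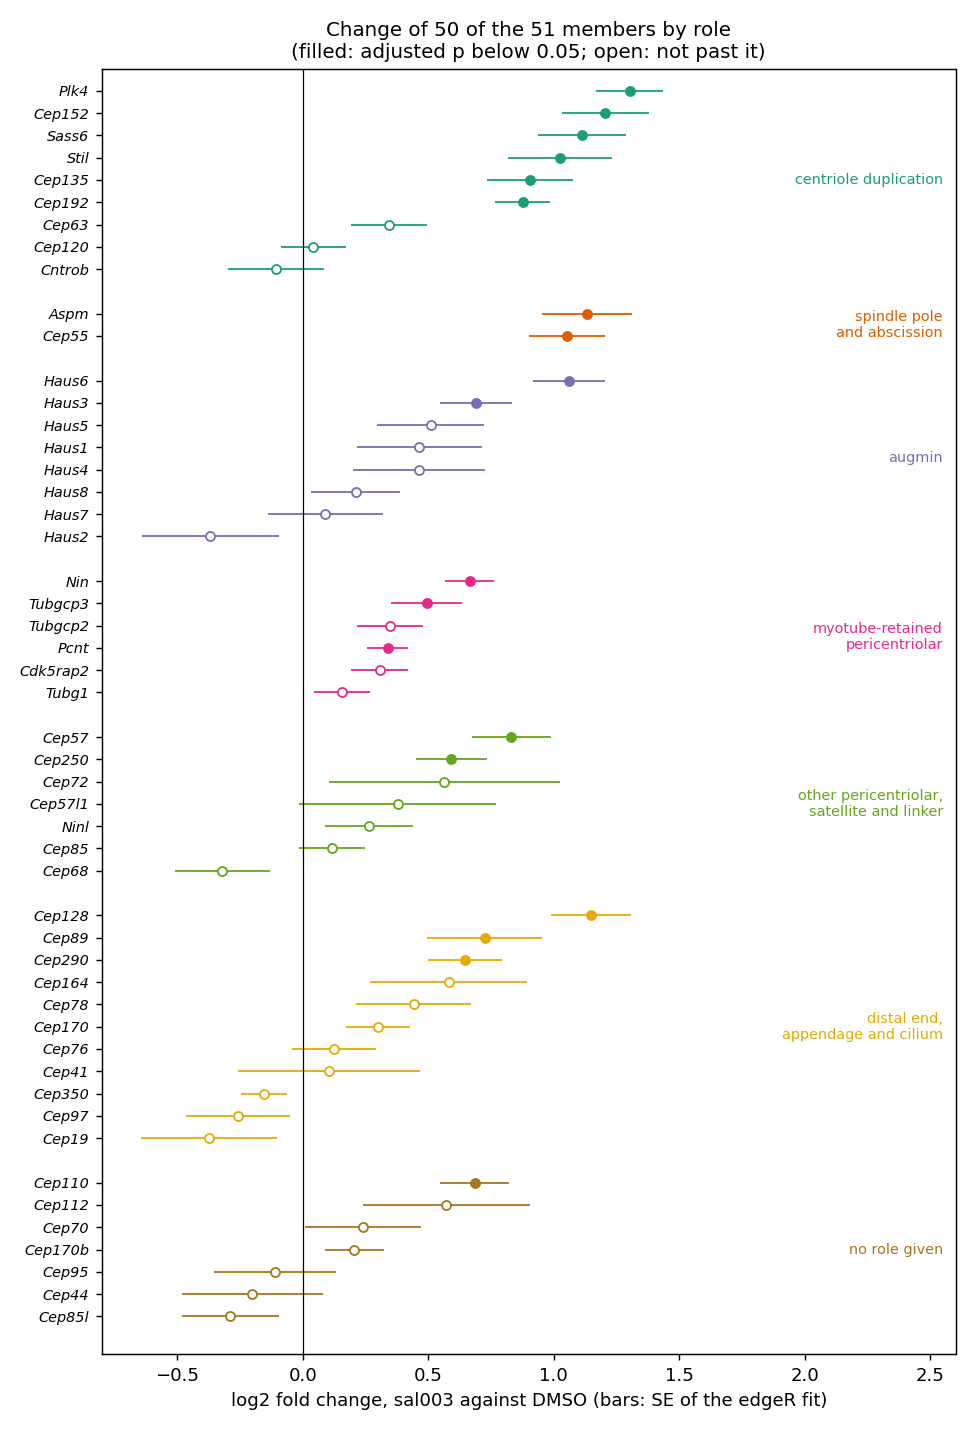
Log2 fold change of sal003 against DMSO for 50 of the 51 members (x axis), grouped by role, with the SE of the edgeR fit as bars and filled points for adjusted p below 0.05. The 6 filled duplication genes lie between 0.88 and 1.30 and the 3 open ones between -0.11 and 0.34. The 6 pericentriolar members retained in myotubes lie between 0.16 and 0.66, with the filled ones from 0.34 to 0.66.

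Most of the core of centriole duplication was higher. Of its 9 members, 6 rose, 0 fell and 3 did not pass, with a median log2 fold change of 0.90. Over all tested genes, 10.6% were higher and 12.2% lower. Plk4, the kinase that starts duplication, had 37.3, 30.4, 46.8 and 43.0 CPM in DMSO replicates 1 to 4 and 95.1, 104, 100.3 and 89.3 CPM in sal003 (ENSMUSG00000025758, chromosome 3, 40800019 to 40816883, plus strand of mm10). Every sal003 library was well above every DMSO library. The log2 fold change was 1.30 ± 0.13 (SE; edgeR, BH-adjusted p = 3.00e-06), a 2.46-fold difference and the largest among the 51 members.

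Stil, the scaffold that Plk4 phosphorylates, had 13.04, 17.4, 11.2 and 12.5 CPM in DMSO and 31.3, 33.4, 21.8 and 23.4 CPM in sal003. The sal003 libraries split into a higher and a lower pair, yet the lowest was above the highest DMSO library, and the log2 fold change was 1.02 ± 0.21 (edgeR, BH-adjusted p = 0.00170). Sass6, which forms the cartwheel, had 16.2, 14.5, 11.5 and 13.9 CPM in DMSO and 25.7, 33.2, 32.2 and 30.04 CPM in sal003, with no overlap and a log2 fold change of 1.11 ± 0.18 (edgeR, BH-adjusted p = 0.000206). An annotated antisense gene, Gm42893, covers 24.5% of the exon length of Sass6, and the strand setting of the counting is not given, so reads of the 2 genes cannot be told apart.

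Of the 3 proteins that hold Plk4 in place, Cep152 and Cep192 rose. Cep152 had 16.2, 12.7, 13.9 and 19.9 CPM in DMSO and 36.4, 38.7, 34.8 and 34.7 CPM in sal003, a log2 fold change of 1.21 ± 0.17 (edgeR, BH-adjusted p = 8.31e-05). Cep192, which also gathers pericentriolar matrix at mitosis, had 60.5, 55.4, 51.4 and 69.3 CPM in DMSO and 111, 102, 113 and 108 CPM in sal003 (0.88 ± 0.11, edgeR, BH-adjusted p = 2.64e-05). Both groups of 4 were separate for these genes. Cep63, the partner of Cep152, had 40.9, 38.0, 47.1 and 40.1 CPM in DMSO and 39.4, 57.3, 50.5 and 63.5 CPM in sal003. Its first sal003 library lay within the DMSO range, and the estimate of 0.34 ± 0.15 missed the threshold (edgeR, BH-adjusted p = 0.127), but passed it without sal003 replicate 1 (0.46, adjusted p = 0.0378).

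Among the genes of the centriole wall, Cep135, which ties the cartwheel to the wall, went from 26.9 ± 5.77 to 50.4 ± 7.01 CPM (SD, n = 4). Its 25.3, 31.0, 19.4 and 31.9 CPM in DMSO were all under its 51.3, 56.0, 40.3 and 53.9 CPM in sal003 (0.90 ± 0.17, edgeR, BH-adjusted p = 0.00104). The elongation genes Cep120 and Cntrob showed no such separation, whereas Rttn, an elongation gene outside the rule that is given below, did. Cep120 had 61.6, 45.0, 53.1 and 63.1 CPM in DMSO and 60.3, 54.8, 52.7 and 61.5 CPM in sal003 (0.04 ± 0.13, edgeR, BH-adjusted p = 0.886). Cntrob, which encodes the daughter centriole protein centrobin, had 20.4, 33.3, 22.7 and 34.7 CPM in DMSO and 29.4, 24.9, 26.5 and 22.4 CPM in sal003 (-0.11 ± 0.19, edgeR, BH-adjusted p = 0.782). For both the groups overlapped, and the sign of the estimate turned without 1 of the DMSO libraries (replicate 2 for Cep120, at -0.037, and replicate 4 for Cntrob, at 0.032).

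**Figure D2:**
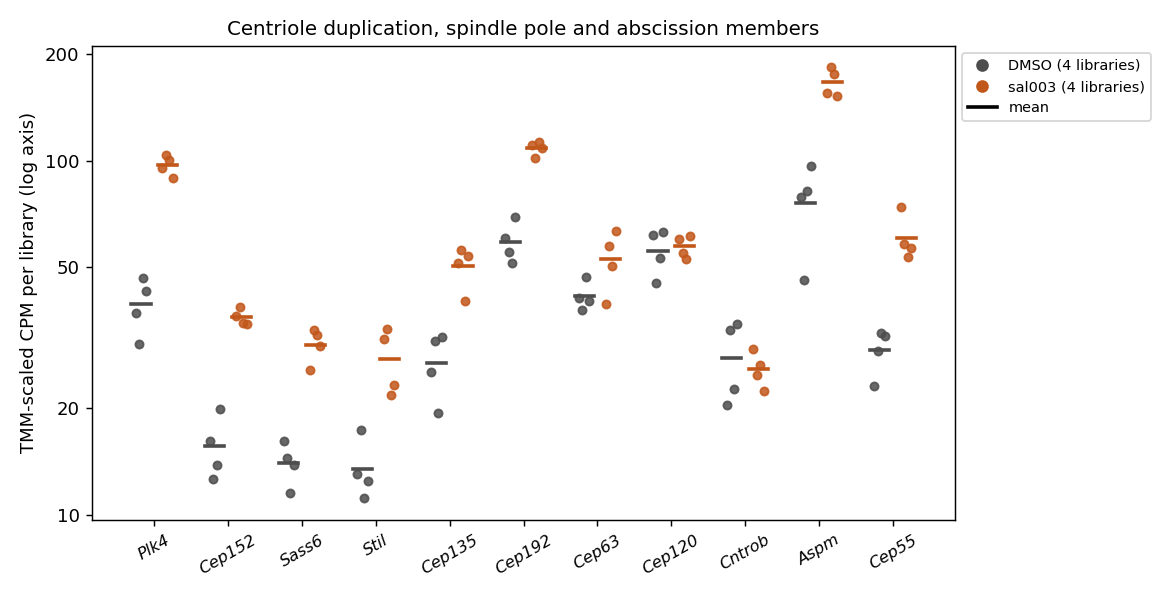
TMM-scaled CPM of each library on a log axis for the 9 duplication members, Aspm and Cep55, with DMSO in grey, sal003 in orange and a bar at each mean. The clouds are apart for Plk4, Cep152, Sass6, Stil, Cep135, Cep192, Aspm and Cep55 and overlap for Cep63, Cep120 and Cntrob.

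Both members of the spindle pole and of abscission rose, where 10.6% of all tested genes did. Aspm, which binds microtubule minus ends at the spindle pole and is a microcephaly gene, had 79.0, 45.9, 82.2 and 96.3 CPM in DMSO and 155, 183, 175 and 152 CPM in sal003. DMSO replicate 2 was the lowest, and no library of one group reached the other (1.13 ± 0.18, edgeR, BH-adjusted p = 0.000415). Cep55, which brings the abscission machinery to the midbody that joins dividing cells, had 23.1, 29.0, 32.6 and 32.0 CPM in DMSO and 73.9, 58.2, 53.4 and 56.7 CPM in sal003 (1.05 ± 0.15, edgeR, BH-adjusted p = 7.93e-05). Here sal003 replicate 1 was the highest and DMSO replicate 1 the lowest.

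The pericentriolar members that myotubes retain had smaller estimates. Of 6, 3 rose, 0 fell and 3 did not pass, and the median log2 fold change was 0.34. Among all tested genes, 10.6% rose and 12.2% fell. Without DMSO replicate 3, 5 of the 6 were higher (9.18% of all genes then tested), and without sal003 replicate 1, 2 of the 6 (7.76%). Nin, the microtubule anchor ninein, changed most, from 80.3, 77.2, 93.1 and 78.3 CPM in DMSO to 124, 134, 131 and 133 CPM in sal003 (0.66 ± 0.10, edgeR, BH-adjusted p = 9.17e-05). Pcnt, the matrix scaffold pericentrin, had 202, 183, 205 and 192 CPM in DMSO and 261, 239.9, 240.4 and 248 CPM in sal003 (0.34 ± 0.08, edgeR, BH-adjusted p = 0.00585). Both were tight within groups, so a 1.26-fold difference in Pcnt stood clear of the replicate spread.

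Cdk5rap2, which tethers and activates γ-tubulin rings, had 146, 102, 149 and 137 CPM in DMSO and 155, 160.3, 168 and 176 CPM in sal003. The groups did not overlap, but the estimate of 0.31 ± 0.11 did not pass (edgeR, BH-adjusted p = 0.0710). It passed without DMSO replicate 3 (adjusted p = 0.0462) and without a filter on low counts (0.0380).

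Of the 3 members that encode subunits of the γ-tubulin complex, 1 rose, where 10.6% of all tested genes did. Other subunit genes lie outside the rule, and Tubgcp4 among them, which rose, is given below. Tubg1, which encodes γ-tubulin, had 78.3, 88.7, 79.3 and 74.0 CPM in DMSO and 82.8, 92.4, 102 and 79.4 CPM in sal003 (0.16 ± 0.11, edgeR, BH-adjusted p = 0.382), with overlapping groups. Tubgcp2 and Tubgcp3 encode the subunits that pair with γ-tubulin in its smallest complex. Tubgcp3 had 46.7, 34.4, 52.1 and 53.6 CPM in DMSO and 69.9, 65.3, 66.1 and 61.6 CPM in sal003 (0.49 ± 0.14, edgeR, BH-adjusted p = 0.0176), a call lost without sal003 replicate 1 (adjusted p = 0.0583). Tubgcp2 had 39.7, 33.9, 46.3 and 42.7 CPM in DMSO and 50.8, 53.3, 47.1 and 55.9 CPM in sal003 (0.35 ± 0.13, edgeR, BH-adjusted p = 0.0717, and 0.0498 without DMSO replicate 3), with the groups just apart.

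**Figure D3:**
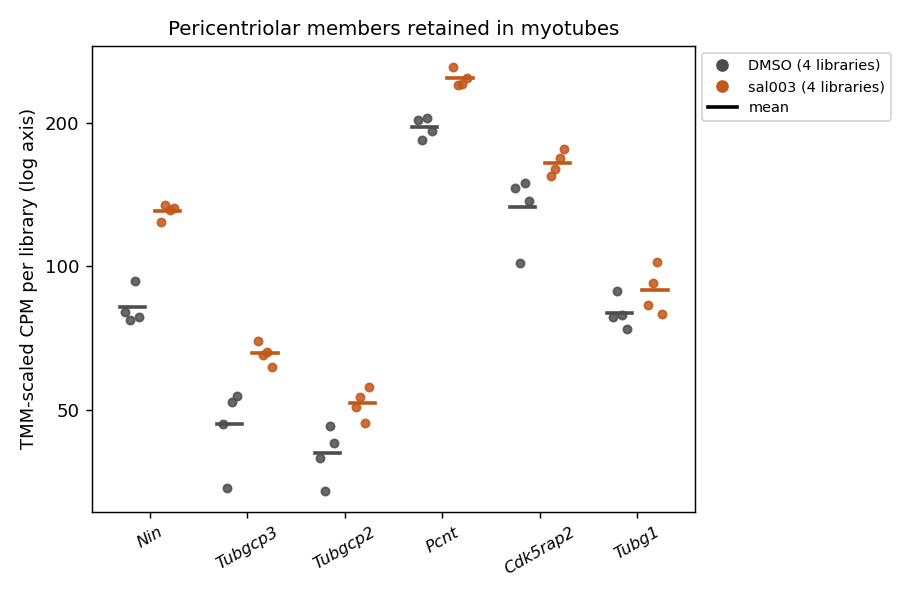
TMM-scaled CPM of each library on a log axis for the 6 pericentriolar members retained in myotubes, with DMSO in grey, sal003 in orange and a bar at each mean. The groups overlap for Tubg1 and are apart for the other 5.

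The balance of the 2 groups of genes was described per library as the mean log2(CPM + 0.5) of the 9 duplication members minus that of the 6 pericentriolar members. It was -1.57, -1.38, -1.79 and -1.41 in DMSO replicates 1 to 4 and -1.17, -1.11, -1.26 and -1.19 in sal003. All sal003 libraries were higher than all DMSO libraries, with means of -1.18 ± 0.06 and -1.54 ± 0.19 (SD, n = 4). The sal003 mean exceeded the DMSO mean by 0.35 in this difference, because the duplication mean was 0.74 higher in sal003 and the pericentriolar mean 0.39 higher. The gap widened to 0.57 with Cntrob and Cep120 left out of the duplication list, as it had to, since they have its lowest estimates. It ran from 0.27 to 0.40 when 1 library was left out. Both lists were chosen with earlier results known, so the difference was not tested. Differences in counts between groups of genes were not tested either.

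**Figure D4:**
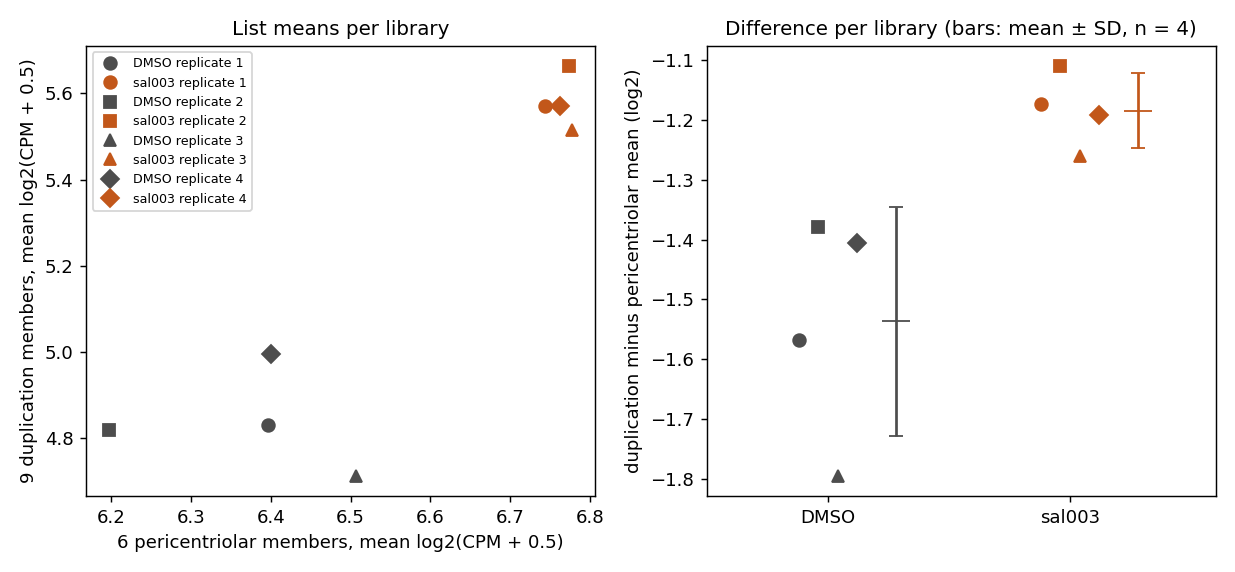
Left, the mean log2(CPM + 0.5) of the 6 pericentriolar members (x axis) and of the 9 duplication members (y axis) in each library. Right, their difference per library with mean and SD (n = 4): DMSO runs from -1.79 to -1.38 and sal003 from -1.26 to -1.11.

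Augmin was led by Haus6. Of its 8 subunits, 2 rose, 0 fell and 6 did not pass, with a median log2 fold change of 0.46. The shares over all tested genes were 10.6% higher and 12.2% lower. Haus6, the subunit that binds the γ-tubulin adaptor Nedd1, had 28.4, 40.9, 31.8 and 42.1 CPM in DMSO and 78.4, 76.5, 65.5 and 78.4 CPM in sal003 (1.06 ± 0.14, edgeR, BH-adjusted p = 4.64e-05). Haus3 had 25.8, 35.9, 28.3 and 32.6 CPM in DMSO and 48.2, 49.3, 44.3 and 55.5 CPM in sal003 (0.69 ± 0.14, edgeR, BH-adjusted p = 0.00220). Neither gene had a sal003 library within the DMSO range.

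The 6 other subunits ran from -0.37 to 0.51. Haus5 had 11.8, 15.0, 9.84 and 9.81 CPM in DMSO and 15.98, 15.9, 15.6 and 18.6 CPM in sal003 (0.51 ± 0.21, edgeR, BH-adjusted p = 0.111), and passed without DMSO replicate 2 (0.67, adjusted p = 0.0181). An annotated transcript on the same strand, Gm21982, covers 56.5% of the exon length of Haus5, which leaves its count uncertain. Haus1 had 7.83, 12.4, 7.29 and 9.73 CPM in DMSO and 11.4, 14.4, 11.1 and 14.4 CPM in sal003 (0.46 ± 0.25, edgeR, BH-adjusted p = 0.222). Haus4, with 20.99, 8.18, 19.1 and 15.1 CPM in DMSO and 17.0, 20.7, 28.3 and 21.3 CPM in sal003, had an estimate of 0.46 ± 0.26 (edgeR, BH-adjusted p = 0.259). Without DMSO replicate 2 the estimates of these 2 genes were 0.64 for Haus1 and 0.26 for Haus4, and neither passed.

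Both Haus1 and Haus4 overlapped between groups. Haus8 had 17.3, 19.3, 19.3 and 16.1 CPM in DMSO and 17.8, 20.3, 23.9 and 21.2 CPM in sal003 (0.21 ± 0.18, edgeR, BH-adjusted p = 0.482). Haus7 had 15.3, 28.1, 16.1 and 25.4 CPM in DMSO and 24.0, 22.6, 16.4 and 27.3 CPM in sal003 (0.09 ± 0.23, edgeR, BH-adjusted p = 0.857, and an estimate of 0.26 without DMSO replicate 2). Haus2 was the subunit with a negative estimate, at 14.4, 18.2, 15.5 and 14.0 CPM in DMSO and 6.64, 14.3, 9.73 and 17.4 CPM in sal003 (-0.37 ± 0.27, edgeR, BH-adjusted p = 0.416), and its sal003 libraries were more scattered than its DMSO libraries.

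**Figure D5:**
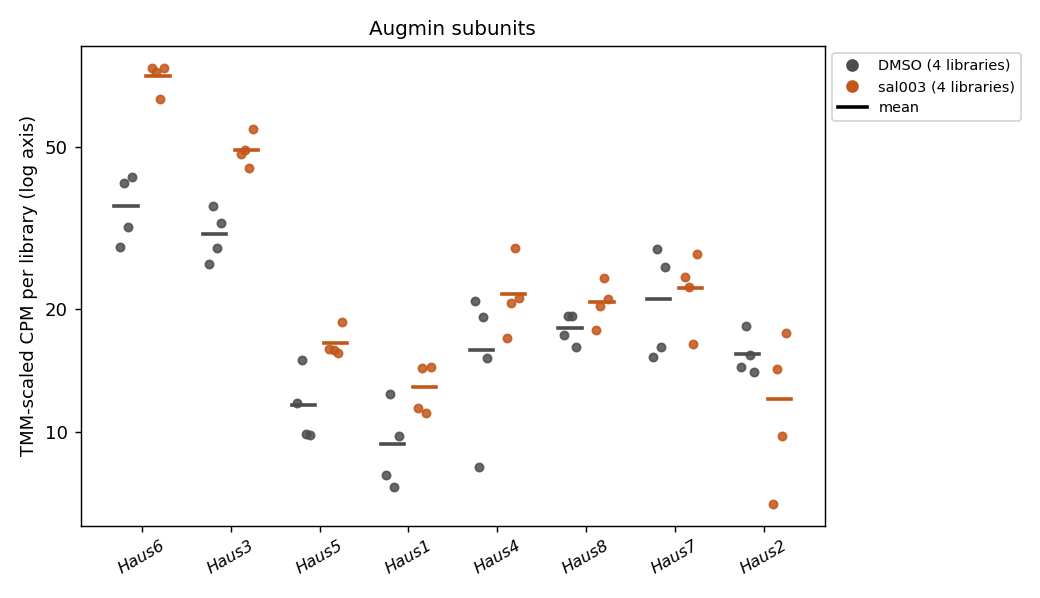
TMM-scaled CPM of each library on a log axis for the 8 augmin subunits, with DMSO in grey, sal003 in orange and a bar at each mean. Haus6 and Haus3 are well apart, Haus5 narrowly so, and the other 5 overlap.

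Of the 7 other pericentriolar, satellite and linker members, 2 rose and 0 fell, against 10.6% and 12.2% of all tested genes. Cep57, a matrix protein that keeps paired centrioles engaged, had 20.8, 20.8, 24.3 and 31.1 CPM in DMSO and 42.6, 40.9, 43.1 and 46.1 CPM in sal003 (0.83 ± 0.16, edgeR, BH-adjusted p = 0.000979). Cep250, the linker protein C-Nap1 that joins the 2 centrosomes of a cell before mitosis, had 81.7, 47.1, 60.5 and 66.1 CPM in DMSO and 104, 98.0, 88.4 and 94.8 CPM in sal003 (0.59 ± 0.14, edgeR, BH-adjusted p = 0.00624). Neither gene overlapped between groups. On the opposite strand, 6430550D23Rik covers 11.1% of the exon length of Cep250, and without the strand setting their reads cannot be told apart. The remaining 5 (Cep72, Cep57l1, Ninl, Cep85 and Cep68) ranged from -0.32 for Cep68, another linker protein (-0.042 without DMSO replicate 2), to 0.56 for Cep72.

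Of the 12 members of the distal end, its appendages and the cilium base, 3 rose, 1 fell and 8 did not pass, with a median of 0.21. Over all tested genes, 10.6% rose and 12.2% fell. The single lower call did not hold in 4 of 8 refits with 1 library removed. Cep128, of the subdistal appendages of the mother centriole, had 16.6, 13.3, 18.7 and 17.3 CPM in DMSO and 37.3, 39.5, 33.1 and 36.3 CPM in sal003 (1.15 ± 0.16, edgeR, BH-adjusted p = 6.82e-05). Cep290, of the ciliary transition zone, had 31.5, 39.9, 51.2 and 49.2 CPM in DMSO and 69.6, 65.6, 71.2 and 62.9 CPM in sal003 (0.65 ± 0.15, edgeR, BH-adjusted p = 0.00427). Both were separate between the groups.

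Cep89, of the distal appendages, had 17.99, 8.45, 16.2 and 19.8 CPM in DMSO and 24.8, 25.7, 27.6 and 25.0 CPM in sal003 (0.72 ± 0.23, edgeR, BH-adjusted p = 0.0312). Leaving out DMSO replicate 3, or any 1 of the sal003 replicates, ended the call (5 of 8 such fits, adjusted p up to 0.0842). Cep164, the distal appendage protein that docks the cilium, had 30.5, 9.13, 30.1 and 32.5 CPM in DMSO and 43.2, 39.6, 33.1 and 37.1 CPM in sal003, and its estimate of 0.58 ± 0.31 did not pass (edgeR, BH-adjusted p = 0.237, and 0.31 as the estimate without DMSO replicate 2). For both genes DMSO replicate 2 was far below the other DMSO libraries.

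Leaving out replicate 1 or replicate 3 of either condition brought the count of lower members to 0 of 51. Without DMSO replicate 2, Cep350 (-0.21, edgeR, BH-adjusted p = 0.0388) and Cep85l (-0.46, adjusted p = 0.0137) were lower. Of the 7 members given no role, 1 rose over all libraries, against 10.6% of all tested genes. This was Cep110, the appendage protein centriolin. It had 50.6, 34.2, 55.1 and 47.8 CPM in DMSO and 74.9, 77.1, 76.9 and 72.8 CPM in sal003 (0.68 ± 0.14, edgeR, BH-adjusted p = 0.00167).

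Per length, as mean CPM per kilobase of exon, Tubg1 was the most abundant member, at 35.3 ± 2.74 in DMSO and 39.4 ± 4.55 in sal003 (SD, n = 4). Other high levels in DMSO were 20.7 ± 2.50 for Cep350, 16.1 ± 0.810 for Pcnt and 15.1 ± 3.20 for Cep170. The mean ± SD overlapped between Pcnt and Cep170 but not between Tubg1 and Cep350 or between Cep350 and Pcnt. The cartwheel genes stood in the lower part of the order in DMSO, Sass6 at 2.29 ± 0.318 and Stil at 2.33 ± 0.464, and these 2 did not differ beyond their spread in DMSO or in sal003 (4.95 ± 0.545 and 4.74 ± 0.992). Plk4 went from 5.74 ± 1.04 to 14.2 ± 0.912 and Cep55 from 10.04 ± 1.49 to 20.8 ± 3.13 on this scale. In DMSO augmin levels spread from 1.30 ± 0.3202 for Haus1 to 14.8 ± 4.52 for Haus7. Across the 51 members, which share the same 8 libraries, the change had a Pearson correlation of 0.085 with mean log2 CPM and 0.22 with log2 exon length, given as a description.

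Centriole genes outside the rule that passed were all higher. Of 16 further genes of centriole assembly, 5 rose and 0 fell (10.6% and 12.2% of all tested genes), with a median of 0.42. They were the capping protein gene Ccp110 (0.77 ± 0.17, edgeR, BH-adjusted p = 0.00283), the centrin Cetn3 (0.52 ± 0.16, 0.0266), the appendage genes Odf2 (0.52 ± 0.11, 0.00225) and Sclt1 (1.05 ± 0.27, 0.0110), and Rttn, needed for centriole elongation (0.96 ± 0.23, 0.00567). Of 5 genes of the role lists that the table carries under other symbols, 2 rose, against 10.6% of all tested genes. These were Cep295 (listed as 5830418K08Rik, 0.91 ± 0.13, edgeR, BH-adjusted p = 8.13e-05) and Cep83 (listed as Ccdc41, 1.08 ± 0.22, 0.00210).

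A further 13 entries covered other γ-tubulin complex genes, their partners and nuclear envelope anchors. Of these, 2 rose and 1 fell (10.6% and 12.2% of all tested genes), with a median of 0.14. Nedd1, the adaptor that links augmin to γ-tubulin, rose (0.81 ± 0.13, edgeR, BH-adjusted p = 0.000199), as did Tubgcp4 (0.37 ± 0.12, 0.0389). Pcm1 (0.24 ± 0.11, edgeR, BH-adjusted p = 0.137) and Akap9 (-0.18 ± 0.13, 0.391) did not pass. For Pcm1 the groups were narrowly apart, with at most 248 CPM in DMSO and at least 251 CPM in sal003. The entry that fell was Syne1, which encodes nesprin-1, the nuclear envelope protein that anchors pericentriolar proteins in myotubes. Its main identifier (ENSMUSG00000019769) had 235, 203, 276 and 254 CPM in DMSO and 79.2, 63.9, 98.0 and 84.4 CPM in sal003. The groups were far apart (-1.57 ± 0.13, edgeR, BH-adjusted p = 2.74e-07). A second identifier with the same symbol held at most 20 counts in any library. GENCODE M21 lists that second identifier and not the main one, so the exons behind the main entry were not checked.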

How the data were processed

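The data were RNA sequencing counts of 8 libraries, 4 per condition, all matched to samples by column name. Values are raw gene counts over exons as the authors deposited them. The tools named in the submitters' processing notes are Trimmomatic 0.32, STAR 2.3.0e and featureCounts 1.4.4, with mm10 as the build; the strand and multi-mapping settings of the counting were not given in the sources used here. Per the labels' protocols, total RNA was depleted of ribosomal and mitochondrial RNA and made into stranded libraries. One label gives the dose as 10 mM and the others as 10 µM, which is used here. Between 75.6% and 83.4% of counts from 1 to 20 were even, so an alternative halved all counts. Replicate libraries differed far beyond counting noise (chi-square per degree of freedom at least 25.3). Precision from depth covers counting error only.

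In R 4.3.3, edgeR 4.0.16 was run on the whole table: filterByExpr by condition (minimum count 10, minimum total 15), TMM, and glmQLFit (robust) on condition alone, tested two-sided and Benjamini-Hochberg adjusted over 15816 genes. The SE is the log2 fold change over the square root of F. The fit was also run on simulated counts with known differences between the groups. At a true difference of 1.5-fold, 14 calls came from 66 genes. At 2-fold there were 31 calls from 67 genes, and at 4-fold 43 from 67. False calls numbered 2 among the 14902 genes simulated with no difference. The simulated differences were placed in genes drawn at random from all that passed the filter, whatever their level. Genes that the filter then removed from the simulated counts stayed in these totals. These counts therefore do not give the power for the members. A member that did not pass may still differ, within what its own estimate and SE allow. Exon lengths and coordinates come from GENCODE M21 (mm10), context genes from symbols and identifiers. DESeq2 1.42.0 and limma 3.58.1 were alternatives, with other scalings, filters, a replicate block and each library left out.

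Members and role lists were chosen with earlier results of these data known. Every member could be named, except 1 that is not reported here; per-library values are given for the duplication, pericentriolar, spindle pole and augmin lists and up to 6 further members in each direction with the largest called change, with single values for others in order of p, and for context genes past the threshold. Cep164, Cep350, Cep85l, Pcm1 and Akap9 were named after their values were seen.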

Additional observations from a re-analysis of the deposited data

Results flagged for a closer look

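In 8 of the 102 groups of 4 libraries examined (51 members in 2 conditions), the highest or lowest library stood apart, its gap to the nearest other, as a share of the group's range on the log2 scale, exceeding Dixon's critical value. Chance flags about 1 in 20 groups. In DMSO, replicate 2 was the library in each of 3 cases: the lowest for Cep164 (9.13 CPM, gap 0.937 of the range) and Cep85l (20.8 CPM, 0.916), and the highest for Cep72 (4.30 CPM, 0.841). In sal003 there were 5 cases: replicate 3 was the lowest for Haus6 (65.5 CPM, 0.861) and Cep68 (39.7 CPM, 0.860), replicate 4 the highest for Haus5 (18.6 CPM, 0.875) and the lowest for Cep70 (13.4 CPM, 0.844), and replicate 1 the lowest for Cep72 (2.45 CPM, 0.988). Haus6 was called in every alternative fit run for it, and the other 6 genes were not called over all libraries.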

How the results depend on the processing

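Of the 20 called members, 17 passed in every alternative run for them, and the 3 exceptions, Cep89 and Tubgcp3 among them, lost their call in fits without 1 library. The count of higher members was 17 at adjusted p below 0.01, for which no share of all genes is given. It was 19 or 20 under the other alternatives that kept all libraries. Without 1 library it was 18 to 21, where 7.76% to 13.4% of the genes tested were higher at adjusted p below 0.05. Over all settings run, that share was 7.76% to 17.4%. The count of lower members was 0 at adjusted p below 0.01 and 0 to 3 without 1 library. In the fits without 1 library, 9.85% to 13.6% of the genes tested were lower at adjusted p below 0.05. Over all settings run, that share was 8.72% to 20.4%. Without 1 library, 6 or 7 duplication members, 2 to 5 pericentriolar members (5 without DMSO replicate 3) and 2 or 3 augmin members were higher. The difference between the duplication and pericentriolar means was 0.57 with Cntrob and Cep120, the lowest duplication estimates, left out, which had to widen it. It was 0.44 with Pcm1, Akap9 and Ninl added to the pericentriolar list. This also had to widen it, since their estimates (0.24, -0.18 and 0.26) lie below that list's mean difference of 0.39. With Cep295 added to the duplication list (chosen after seeing the data) the difference was 0.37. That too had to widen it, since the estimate of Cep295 (0.91) lies above that list's mean difference of 0.74. Without 1 library the difference between the means was 0.27 to 0.40. Signs turned for 5 members that were not called, each only in fits without 1 library, in which the log2 fold change ran from -0.031 to 0.26 for Haus7, -0.037 to 0.12 for Cep120, -0.22 to 0.032 for Cntrob, -0.065 to 0.61 for Cep41 and -0.24 to 0.22 for Cep95. The cause was not tested. With the replicate block, 19 members were higher and 1 lower, and no count changed by over 1.5 times. Same-numbered libraries had correlations of deviations from -0.01 to 0.07, and 2 of the 4 DMSO libraries correlated best with their own number. So few libraries cannot tell whether those of the same number share an animal, culture or batch. Cep72, Cep41, Cep112, Cep44 and Cep57l1 had under 10 CPM on average, and the part of depth in their spread was not tested.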
